A study of Mus musculus with 5 samples.

Results

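Of 31098 chromatin regions that carried the histone variant H2A.Z in the mouse heart, 4378 were CpG-island promoters of a single gene with no overlapping region of the H2A.Z chaperone ANP32E. These promoters were taken from the deposited H2A.Z table as regions with at least 1 CpG island, a length under 10000 bp, and exactly 1 listed gene whose start lay within 1000 bp of the region's centre or inside the region. A region that shared 1 bp or more with any region of the deposited ANP32E table was left out. The 4378 regions made up 14.1% of the H2A.Z table and 37.7% of its 11622 promoter regions. They belonged to 4376 genes, since Epb4.1l4b and Mterf each had a pair of such regions. Lacking ANP32E means here that no ANP32E interval was called in either heart, which is not the same as no binding.

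The study profiled H2A.Z and ANP32E by chromatin immunoprecipitation and sequencing in whole hearts of male C57BL/6 mice aged 12 weeks. One condition was transaortic coarctation (TAC), a surgical narrowing of the aorta that puts the left ventricle under pressure, with hearts taken at 4 days, and the other was a sham operation. Each antibody gave 1 TAC library and 1 sham library, and a pooled heart sample gave the input, 5 libraries in all. The labels do not give how many animals went into a library. With 1 library per antibody and condition there is no measure of spread between animals, so no difference between TAC and sham hearts was tested and every value describes these libraries. In whole hearts, a difference in how many cells carry H2A.Z and a difference in the amount per cell cannot be told apart.

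H2A.Z replaces the ordinary histone H2A in nucleosomes that flank the start sites of many genes, and it is put there by the SRCAP and p400 complexes. ANP32E is a chaperone that binds H2A.Z and takes it off chromatin. CpG islands are stretches of DNA that kept their CG dinucleotides, they mark the promoters of most housekeeping genes and of many developmental regulators, and they are a common site of H2A.Z.

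The following promoters are shown because the results return to them: Gpr176, Kcnc2 and Adrb1 had more H2A.Z signal in the TAC heart, Esrrg and Des had less, and Synm was among the strongest. Each line gives 300 bases from RefSeq on GRCm38.p6, from 250 bases before to 50 bases after the gene start, 5′ to 3′ on the strand of the gene, with every CG dinucleotide in capitals.
Gpr176: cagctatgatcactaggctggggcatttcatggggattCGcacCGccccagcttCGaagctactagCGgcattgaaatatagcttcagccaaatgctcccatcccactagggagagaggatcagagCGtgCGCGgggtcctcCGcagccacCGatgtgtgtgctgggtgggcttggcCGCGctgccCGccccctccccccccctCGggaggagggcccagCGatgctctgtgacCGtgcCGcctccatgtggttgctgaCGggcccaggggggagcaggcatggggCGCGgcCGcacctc
Kcnc2: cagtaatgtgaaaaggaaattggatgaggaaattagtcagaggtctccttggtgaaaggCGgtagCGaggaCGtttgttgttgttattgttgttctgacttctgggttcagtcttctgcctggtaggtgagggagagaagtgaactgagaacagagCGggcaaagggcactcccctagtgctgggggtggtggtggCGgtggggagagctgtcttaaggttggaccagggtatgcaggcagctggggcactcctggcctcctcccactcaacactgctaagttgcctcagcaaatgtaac
Adrb1: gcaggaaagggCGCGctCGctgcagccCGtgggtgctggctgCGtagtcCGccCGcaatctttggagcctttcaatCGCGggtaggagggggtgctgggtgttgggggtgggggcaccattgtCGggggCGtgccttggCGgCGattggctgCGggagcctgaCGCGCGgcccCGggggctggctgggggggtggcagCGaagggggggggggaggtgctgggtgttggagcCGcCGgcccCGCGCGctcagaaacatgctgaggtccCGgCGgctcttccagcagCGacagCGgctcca
Synm: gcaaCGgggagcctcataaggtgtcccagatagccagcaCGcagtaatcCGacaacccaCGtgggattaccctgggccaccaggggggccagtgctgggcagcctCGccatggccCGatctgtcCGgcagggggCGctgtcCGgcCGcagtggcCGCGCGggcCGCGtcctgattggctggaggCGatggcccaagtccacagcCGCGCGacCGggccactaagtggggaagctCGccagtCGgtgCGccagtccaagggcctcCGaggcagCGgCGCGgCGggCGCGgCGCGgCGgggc
Esrrg: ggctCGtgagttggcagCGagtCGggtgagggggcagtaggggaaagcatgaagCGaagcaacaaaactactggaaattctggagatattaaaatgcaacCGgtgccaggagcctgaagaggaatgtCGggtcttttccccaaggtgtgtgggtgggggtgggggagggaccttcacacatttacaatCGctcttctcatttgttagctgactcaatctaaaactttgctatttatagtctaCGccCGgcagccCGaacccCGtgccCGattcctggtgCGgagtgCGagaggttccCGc
Des: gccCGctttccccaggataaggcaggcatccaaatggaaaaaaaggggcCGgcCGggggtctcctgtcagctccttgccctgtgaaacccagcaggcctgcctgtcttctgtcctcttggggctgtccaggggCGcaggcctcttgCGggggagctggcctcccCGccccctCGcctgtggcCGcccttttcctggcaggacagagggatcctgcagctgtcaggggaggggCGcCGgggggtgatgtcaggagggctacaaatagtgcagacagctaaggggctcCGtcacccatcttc

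The windows lie at chr2:118373370-118373669 on the minus strand for Gpr176, chr10:112270873-112271172 on the plus strand for Kcnc2 and chr19:56721867-56722166 on the plus strand for Adrb1. Those of Synm at chr7:67759693-67759992 on the minus strand, Esrrg at chr1:187608756-187609055 on the plus strand and Des at chr1:75360042-75360341 on the plus strand complete the set. Synm had 33 CG dinucleotides in its window, Adrb1 28, Gpr176 20, Esrrg 15, Des 11 and Kcnc2 5, against a median of 7 over all 32851 windows of the RefSeq table. The 3316 promoters lacking ANP32E with a matched window had a median of 23, with quartiles of 16 and 31. Esrrg, Des and Kcnc2 were thus below the lower quartile of these promoters. The window of Kcnc2 was also below the median of all RefSeq windows, while the deposited table lists more than 1 CpG island in its region, which is 3236 bp long. The RefSeq start of Adrb1 lay 255 bp from the start that the table implies. A RefSeq window could be matched to 3316 of the 4378 promoters (75.7%), under the 80% needed to compare base composition over the whole set. No comparison with promoters that have ANP32E is therefore reported.

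Lack of ANP32E was the more frequent state of single-gene CpG-island promoters. Of 7374 such promoters with H2A.Z, 59.4% had no overlapping ANP32E region (exact Clopper-Pearson 95% interval 58.2% to 60.5%, which covers counting error only), and 2996 had one. The promoters lacking ANP32E were shorter, with a median length of 3937 bp against 4458.5 bp for those with ANP32E. They also held less H2A.Z. The deposited average signal, a value per region whose scaling was not given in the sources used here, had a median of 25.9 in the TAC heart and 24.5 in the sham heart. The promoters with ANP32E had a median of 31.3 in the TAC heart and 31.2 in the sham heart. Peak signal, the highest value in a region, had a median of 88 in TAC and 77 in sham hearts without ANP32E, and of 112 in TAC and 103 in sham hearts with it. Average signal at the promoters lacking ANP32E ran from 8.49 to 67.8 in the TAC heart and from 5.71 to 67.4 in the sham heart.

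The weaker the H2A.Z signal, the more often ANP32E was missing. When the 7374 promoters were put into 5 bins of equal size by the mean of their TAC and sham signal, 92.0% of the weakest bin lacked ANP32E, then 67.5%, 55.2%, 46.9% and, in the strongest bin, 35.2%. The strongest bin thus still held 519 promoters without a called ANP32E region. Region length went the same way, with 77.1% lacking ANP32E among the shortest promoters and 48.7% among the longest. Signal was lower without ANP32E in every length bin, with a difference of medians of -11.7 among the shortest and -4.26 among the longest. How far the lack of an ANP32E call follows from weak H2A.Z was not tested.

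The H2A.Z signal at promoters lacking ANP32E was slightly higher in the TAC than in the sham heart, and this held for most of them. The log2 ratio of TAC over sham average signal, with 1 added to each value, had a median of 0.08, with quartiles of -0.0046 and 0.19 and an SD over promoters of 0.17. It was above 0 at 3239 of the 4378 promoters (74.0%). Promoters with ANP32E had a median of 0.0024 with an SD of 0.11, and 50.9% of them were above 0. All 11622 promoter regions together had a median of 0.04, and all 31098 H2A.Z regions had a median of 0.014. Peak signal gave larger ratios, with medians of 0.19 for promoters lacking ANP32E, 0.11 for those with it and 0.14 for all promoter regions.

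**Figure D1:**
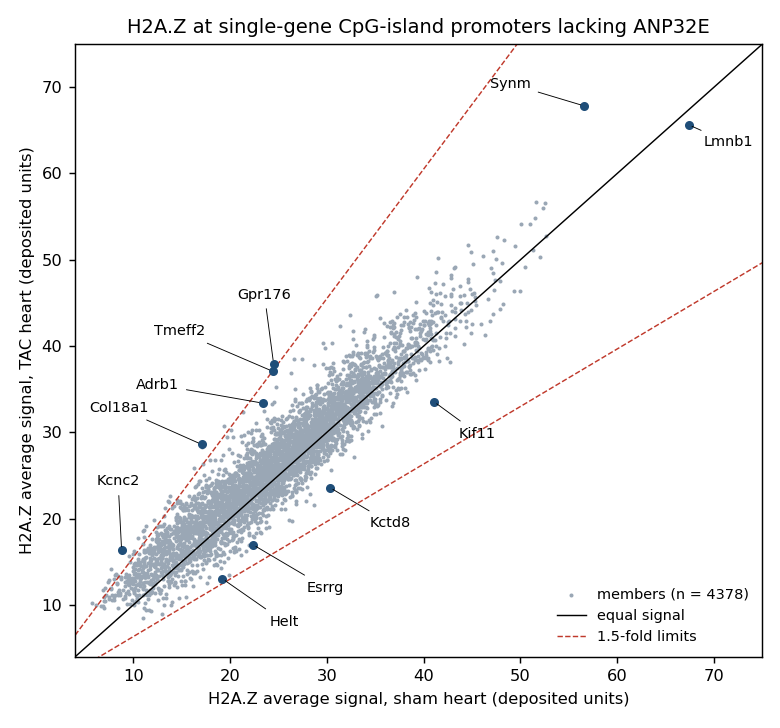
Average H2A.Z signal of the 4378 promoters in the TAC heart (vertical axis) against the sham heart (horizontal axis), in deposited units. Each grey point is 1 promoter, dark points are named in the text, the solid line is equal signal and the dashed lines are the 1.5-fold limits; 33 promoters lie above the upper limit and 0 below the lower one.

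The difference between promoters without and with ANP32E was present at every level of signal and was greatest among weak promoters. In the weakest bin the median log2 ratio was 0.16 without ANP32E and -0.02 with it, and in the strongest bin it was 0.06 without and 0.013 with. The weakest bin held 1357 promoters without and only 118 with ANP32E, and their signals were not alike, with medians of 17.1 without and 19.8 with. The difference of medians was 0.18, 0.08, 0.06, 0.07 and 0.048 from the weakest to the strongest bin. Across bins of length the difference lay between 0.065 and 0.091. The 181 promoters lacking ANP32E that were called only in TAC were listed through their TAC signal. They were weak, with a median of 14.2 in TAC, and had a median ratio of 0.37. Over promoters called in both hearts the difference of medians was 0.075, against 0.080 over all. Within the promoters lacking ANP32E, the ratio had a Spearman coefficient of -0.20 with mean signal and of -0.24 with length over 4378 promoters, where ratio and mean share the same libraries. With the length of the gene the coefficient was -0.01 over 4337 promoters. The 273 promoters with more than 1 CpG island, up to 5, had a median ratio of 0.15, with median signals of 23.4 in TAC and 22.1 in sham hearts.

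**Figure D2:**
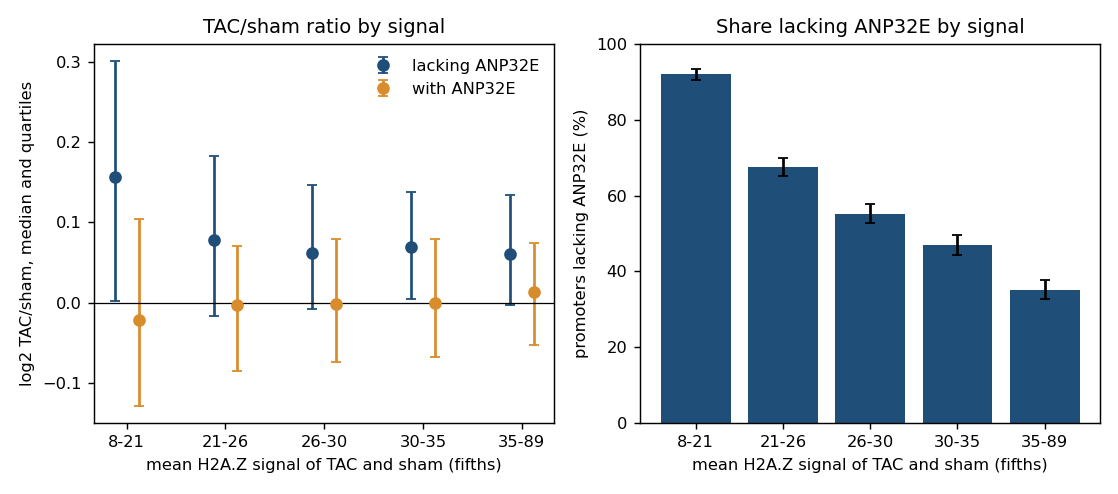
Single-gene CpG-island promoters in 5 bins of equal size by mean H2A.Z signal, from weakest to strongest. The share lacking ANP32E goes down from 92.0% to 35.2%, and the median log2 ratio of TAC over sham signal of promoters lacking ANP32E stays above that of promoters with ANP32E in all 5 bins.

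Few single promoters differed by much. A difference of at least 1.5-fold, higher in TAC, was seen at 33 promoters lacking ANP32E (0.754%), near the 0.516% of all promoter regions and below the 1.74% of all H2A.Z regions. None was 1.5-fold lower in TAC, where the background was 0.172% of promoter regions and 3.92% of all regions. Among promoters with ANP32E none was past this fold in either direction. By peak signal, 227 promoters lacking ANP32E were 1.5-fold higher and 7 lower in TAC, against backgrounds of 3.21% higher and 0.293% lower over promoter regions, and 5.81% higher and 4.45% lower over all H2A.Z regions. With 5 added to each signal in place of 1, the 33 became 4. The 33 promoters were weak, with a median average signal of 17.7 in the TAC and 11.0 in the sham heart. Of them, 22 had an interval called only in the TAC heart and 11 in both hearts, so for most of them the signal in TAC also decided that the region was listed. Over all promoters lacking ANP32E, 4166 (95.2%) were called in both hearts, 181 only in TAC and 31 only in sham.

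The highest ratios among the 33 were at promoters with little signal. Kcnc2, a voltage-gated potassium channel of fast-spiking neurons, had an average signal of 16.3 in the TAC and 8.80 in the sham heart (log2 ratio 0.82). Gpr123, an adhesion G protein-coupled receptor, had 14.2 in TAC and 7.66 in sham (0.81), and Wasf3, an actin regulator of the WAVE family, had 10.3 in TAC and 5.71 in sham (0.75). Col18a1, whose collagen chain contains endostatin, was stronger, with 28.6 in the TAC and 17.1 in the sham heart (0.71). Gpr176, an orphan G protein-coupled receptor, was the only one of the 33 in the stronger 50% of promoters, those with a mean signal of at least 25.2. Its region at chr2:118372146-118374904 had 38.0 in TAC and 24.5 in sham (0.61), and a peak of 85 in TAC and 58 in sham.

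In the stronger 50%, the highest ratios after Gpr176 stayed under the 1.5-fold limit. Tmeff2, a transmembrane protein with follistatin modules, had a log2 ratio of 0.58, and Rnf219, a ubiquitin ligase that acts at replication origins in human cells, had 32.4 in the TAC and 21.3 in the sham heart (0.58). St8sia6, a sialyltransferase, had 30.3 in TAC and 20.1 in sham (0.57). Adrb1, the main beta-adrenergic receptor of heart muscle cells, had a ratio of 0.50 at chr19:56719674-56725144. Snapc4, a subunit of the complex that activates small nuclear RNA genes, had 0.49, the guanine nucleotide exchange factor Arhgef26 and the doublecortin-like kinase Dclk2 had 0.47 each, and the engulfment adaptor Gulp1 had 0.46. All of these were higher in TAC by peak signal as well, with log2 ratios between 0.23 at Snapc4 and 0.76 at St8sia6.

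The lowest ratios in the stronger 50% were smaller and less alike between average and peak signal. Kctd8, an auxiliary subunit of GABA-B receptors, had 23.6 in the TAC and 30.3 in the sham heart (-0.35), but its peak ratio was 0.026. Kif11, the mitotic motor that separates spindle poles, had -0.28 by average and -0.14 by peak signal. Ube4a, a ubiquitin chain elongation factor, had 27.2 in TAC and 32.8 in sham (-0.26), and Klhl40, a muscle protein that stabilises thin filaments, had 23.7 in TAC and 27.9 in sham (-0.23). Uqcc, an assembly factor of respiratory complex III, had 30.8 in TAC and 35.7 in sham (-0.21). The claudin Cldn25 had -0.29, the nucleotidase Nt5c1a -0.24 and the polycystin-like Pkdrej -0.20. Kremen1, a Dickkopf receptor that dampens Wnt signalling, had -0.22 by average but 0.24 by peak, and Bcl10, an adaptor of NF-kappa-B signalling, had -0.19 by average but 0.20 by peak.

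The 5 strongest promoters without ANP32E differed little between the hearts, with log2 ratios from -0.04 to 0.26. Lmnb1, which encodes a lamin of the nuclear envelope, had 65.6 in the TAC and 67.4 in the sham heart (-0.04). Synm, which encodes the intermediate filament protein synemin of muscle, had 67.8 in TAC and 56.6 in sham (0.26). Fem1b, a substrate receptor of a ubiquitin ligase, had 56.5 in TAC and 52.6 in sham (0.10). The peroxisomal reductase Far1 (0.10) and the arginine methyltransferase Prmt6 (0.13) followed. At 4 of these 5 the average was higher in TAC, and at all 5 the peak was.

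Sorting the genes into families showed which kinds of promoter lacked ANP32E. Across 37 lists drawn up by gene family or function, the share of single-gene CpG-island promoters without ANP32E went from 15.4% to 92.3%, around the 59.4% of all such promoters. Because weak promoters lack ANP32E more often, each share is set beside the share among all promoters of like H2A.Z signal. Potassium channel genes stood at the top, with 24 of 26 lacking ANP32E (92.3%, against 83.1% at like signal). G protein-coupled receptor genes had 62 of 69 (89.9%, against 76.3%) and homeobox genes 68 of 76 (89.5%, against 81.1%). Neuronal adhesion, transmitter receptor and vesicle fusion genes had 26 of 30 (86.7%, against 74.2%), the collagen, laminin, integrin and matrix protease genes 73 of 86 (84.9%, against 74.5%), and growth factor, Wnt, Hedgehog and Notch ligand genes 31 of 37 (83.8%, against 71.5%). Solute carriers other than mitochondrial ones had 88 of 116 (75.9%, against 66.0%). The exact 95% intervals were 74.9% to 99.1% for potassium channel and 80.3% to 95.3% for homeobox genes. For the ligand list they were 68.0% to 93.8%. They were 69.3% to 96.2% for the neuronal adhesion, transmitter receptor and vesicle fusion list, which also holds Lrrc47 and syntaxin genes such as Stx7 and Stx12. All of these intervals cover the like-signal share, while those of the receptor, matrix and solute carrier lists named above lay over it. Other lists of surface and secreted proteins lay at the share of their signal, with 45 of 71 growth factor, guidance and Frizzled receptor genes (63.4%, against 64.3%) and 13 of 18 semaphorin, ephrin, netrin and Slit genes (72.2%, against 72.7%). Some transcription factor lists lay below it, with 20 of 39 basic helix-loop-helix genes (51.3%, against 64.3%) and 10 of 23 cardiac transcription factor genes (43.5%, against 65.9%). The exact interval of the basic helix-loop-helix list, 34.8% to 67.6%, covers its like-signal share. That of the cardiac transcription factor list, 23.2% to 65.5%, ended just under its like-signal share.

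The lower end held lists of translation, splicing, respiration and protein turnover genes, beside several small lists. Cytosolic ribosomal protein genes lacked ANP32E at 6 of 39 promoters (15.4%, exact interval 5.86% to 30.5%, against 54.3% at like signal). Heat shock and chaperone genes lacked it at 12 of 38 (31.6%), respiratory chain and ATP synthase genes at 15 of 45 (33.3%), and histone modifier and remodeller genes at 30 of 88 (34.1%). Translation factors at 14 of 38 (36.8%), spliceosome genes at 33 of 89 (37.1%) and proteasome and ubiquitin-conjugating enzyme genes at 22 of 56 (39.3%) were close to these. All of these lists had a like-signal share between 51.6% and 57.4%. These low shares depended on which ANP32E regions counted. With only ANP32E regions called in both hearts, 81.4% of all single-gene CpG-island promoters lacked it, and the share was 56.4% for cytosolic ribosomal protein, 68.4% for heat shock, 68.9% for respiratory chain and 69.3% for histone modifier genes. It was then 73.7% for translation factor, 70.8% for spliceosome and 67.9% for proteasome genes, so all of these stayed under the share of all promoters. Among small lists, calcium handling genes lacked ANP32E at 5 of 15 promoters (33.3%), PP2A subunit genes at 5 of 14 (35.7%), Kruppel-like and Sp factor genes at 6 of 16 (37.5%) and hypertrophy stress genes at 3 of 8 (37.5%). With only regions called in both hearts these were 73.3%, 57.1%, 43.8% and 87.5%. The like-signal shares of these small lists were 49.9%, 51.9%, 62.7% and 61.4%. Their exact intervals, in the same order, were 11.8% to 61.6%, 12.8% to 64.9%, 15.2% to 64.6% and 8.52% to 75.5%. Each interval covers the like-signal share of its list, so these lists were not set apart from promoters of like signal. Zinc finger (Zfp) genes, at 94 of 169 (55.6%, against 55.4%), lay close to promoters of like signal. Cell cycle and replication genes had 73 of 117 (62.4%, against 56.8%). The genes for H2A.Z, the ANP32 family and the exchange complexes lacked ANP32E at 3 of 16 promoters (18.8%, against 47.4% at like signal and 68.8% with only regions called in both hearts), those of Anp32b, Trrap and Actr6.

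**Figure D3:**
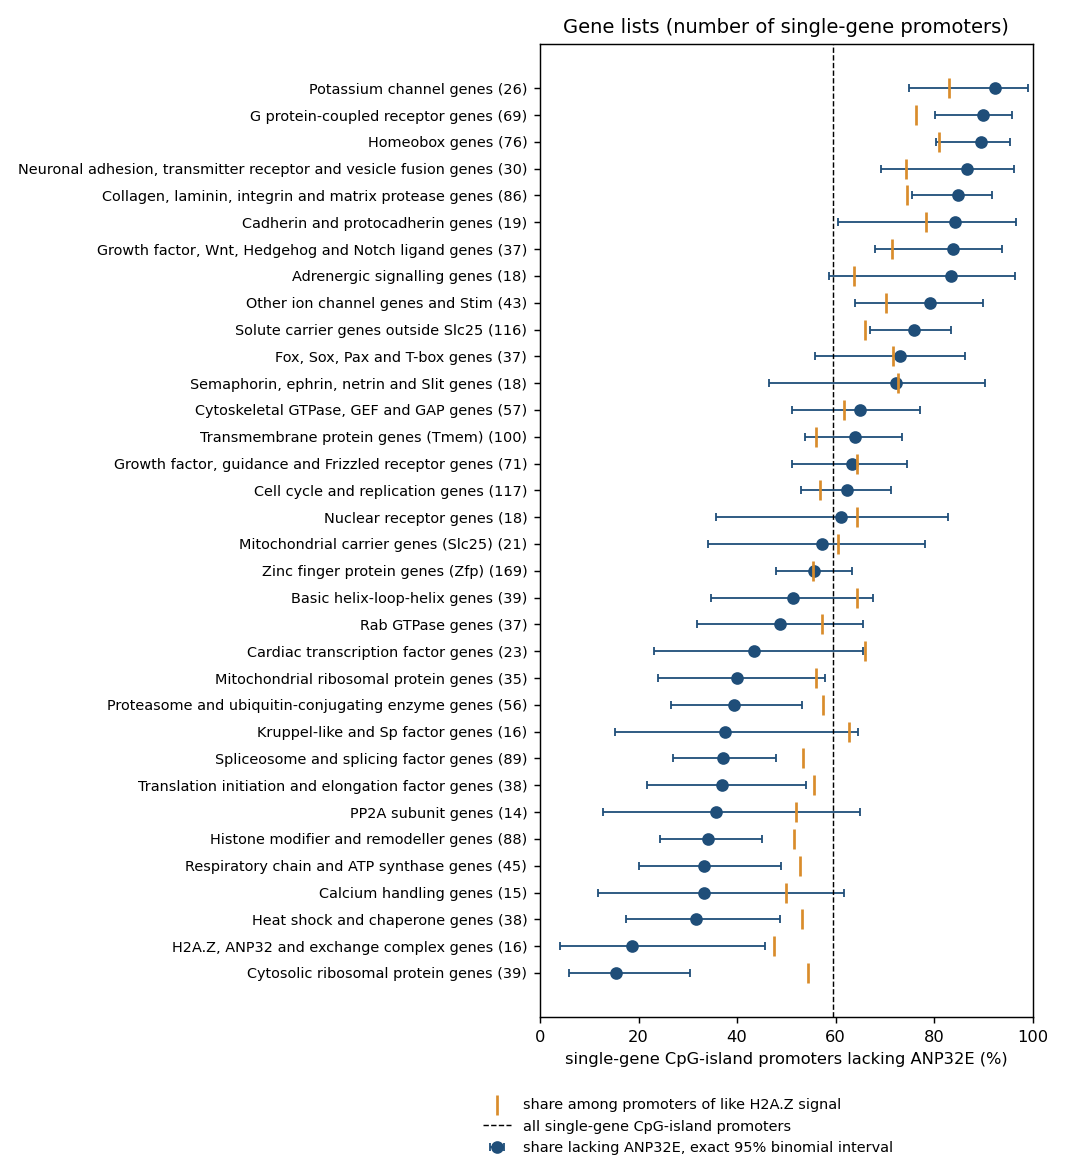
Share of single-gene CpG-island promoters lacking ANP32E (horizontal axis, %) for the 34 gene lists with at least 10 such promoters, whose number stands in brackets. Points carry exact 95% binomial intervals, orange marks give the share among promoters of like H2A.Z signal and the dashed line is the 59.4% of all; potassium channel, G protein-coupled receptor and homeobox genes lie at the top and cytosolic ribosomal protein genes at the bottom.

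Promoters of developmental transcription factors that lacked ANP32E stood at the high end of the TAC over sham ratio. Their 3 lists, the homeobox, the Fox, Sox, Pax and T-box, and the basic helix-loop-helix genes, had medians of 0.21, 0.23 and 0.23, against 0.08 for all promoters lacking ANP32E and 0.014 for all H2A.Z regions. Of 115 promoters in these lists, 99 (86.1%) were above 0, with median signals of 19.5 in TAC and 16.1 in sham hearts. Hoxd1, a homeobox gene of body axis patterning, had 18.5 in the TAC and 11.1 in the sham heart (0.70), in a region called only in TAC. The medians and counts of the lists include promoters called only in TAC. They were not computed over promoters called in both hearts. Foxe3, a forkhead factor of the lens, had 26.3 in TAC and 17.2 in sham (0.59), and Bhlhe22, a neuronal helix-loop-helix factor, had 21.9 in TAC and 14.8 in sham (0.53). These promoters were weak ones, and against promoters lacking ANP32E of like signal their medians were higher by 0.06, 0.09 and 0.10 for the 3 lists. Others were lower in TAC, such as the forkhead factor Foxo4, which had 19.9 in TAC and 22.3 in sham (-0.15).

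Receptor, channel, matrix and ligand genes had wide ranges, and some genes stand in more than 1 list. Against promoters lacking ANP32E of like signal, the median of G protein-coupled receptor genes was higher by 0.13, while the difference was 0.02 for potassium channel, -0.04 for other ion channel, 0.0006 for matrix and -0.0004 for ligand genes. Over all promoters lacking ANP32E, 74.0% of ratios were above 0. G protein-coupled receptor genes had a median of 0.26, the highest of the 37 lists, with 52 of 62 above 0. Their range went from Gpr123 (0.81) to the neurotensin receptor Ntsr2 (-0.32). Potassium channel genes had a median of 0.15 with 17 of 24 above 0, and ranged from Kcnc2 to Kcnd2, a transient outward potassium channel of heart and brain, at 16.3 in the TAC and 20.6 in the sham heart (-0.32). The list of other ion channel genes had 25 of 34 above 0, with the mechanosensitive channel Piezo2 at the top (0.71). That list was matched by name and also holds Tmem160, Tmem163, Tmem164, Tmem165, Tmem168 and Trpc4ap, which do not belong to its channel families. Matrix genes had 62 of 73 above 0 with a median of 0.14, between Col18a1 and Emilin2, an elastic fibre protein (-0.35). Wnt2, a secreted ligand of the Wnt family, had 17.8 in TAC and 11.2 in sham (0.63), while Wnt5b had 19.5 in TAC and 21.9 in sham (-0.16). Ephb6 (0.43) and the neuregulin receptor Erbb4 (-0.41) bounded the list of growth factor, guidance and Frizzled receptors, in which 35 of 45 were above 0. The regions of Gpr123, Kcnc2 and Piezo2 were called only in the TAC heart, so their TAC signal also decided that they were listed. The medians and counts of their lists include such promoters.

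Housekeeping lists lay near the median of all promoters lacking ANP32E or below it. Spliceosome genes had a median of 0.07 (23 of 33 above 0), respiratory chain genes 0.06 (12 of 15), cell cycle genes 0.05 (45 of 73) and proteasome genes 0.00 (11 of 22). Within the spliceosome list the top value was that of Rbm20, a splicing factor that acts on titin, with 20.96 in the TAC and 15.2 in the sham heart (0.44). Of the 6 ribosomal protein promoters without ANP32E, the X-linked Rps4x had the highest ratio, with 21.8 in TAC and 16.9 in sham (0.34). Histone modifier genes had 24 of 30 above 0 and a median of 0.09, from Smyd3 (0.25) to Prdm2 (-0.07). PP2A subunit genes, which include the catalytic subunit Ppp2cb (0.29), had 4 of 5 above 0, the exception being Set (-0.05), an inhibitor of PP2A.

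Cardiac genes had more ratios below 0 than above. The 5 lists of adrenergic signalling, calcium handling, sarcomere, hypertrophy stress and cardiac transcription factor genes held 37 promoters lacking ANP32E, of which 15 (40.5%) were above 0, against 74.0% of all 4378. Their median was -0.01, with median signals of 20.5 in TAC and 20.8 in sham hearts. By peak signal 21 of the 37 (56.8%) were above 0, against 80.7% of all, with a median of 0.04. Des, the muscle intermediate filament desmin, had 15.8 in the TAC and 19.1 in the sham heart (-0.26), and Mybpc3, the cardiac myosin-binding protein C, had 17.7 in TAC and 20.3 in sham (-0.19). The filamin Flnc had -0.0012, and Nebl, the thin filament protein nebulette, had 21.8 in TAC and 17.96 in sham (0.27). All 3 hypertrophy stress gene promoters lacking ANP32E were below 0. They were those of the LIM protein Fhl1 at 12.3 in TAC and 15 in sham (-0.27), the matricellular Ctgf (-0.11) and the metallothionein Mt2 (-0.02).

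Among 10 cardiac transcription factors, 4 were above 0. Esrrg, a nuclear receptor that drives mitochondrial genes, had 17.0 in the TAC and 22.4 in the sham heart (-0.38) and a peak ratio of -0.74. Nkx2-5, a homeodomain factor of heart development, had 13.7 in TAC and 16.4 in sham (-0.25) with a peak ratio of 0.04, and Irx4, a ventricular homeodomain factor, had 14.8 in TAC and 17.1 in sham (-0.20). Gata5 (-0.12), Prox1 (-0.07) and Isl1 (-0.01) were also below 0. Hand2, which patterns the right ventricle, had 18.2 in TAC and 15.1 in sham (0.26), Shox2, a factor of the sinus node, had 0.29, and Tbx18 (0.07) and Myocd (0.03), the coactivator of smooth muscle genes, were close to 0. Within the homeobox list, Hoxd1 had the highest and Nkx2-5 the lowest ratio of 68.

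Adrenergic genes were split. The alpha receptors with the lower ratios were Adra1b, at 15.2 in the TAC and 17.9 in the sham heart (-0.22), and Adra1d, at 18.6 in TAC and 20.8 in sham (-0.15). The alpha-2 receptors Adra2a, at 25.8 in TAC and 19.5 in sham (0.39), and Adra2b, at 23.1 in TAC and 18.3 in sham (0.32), were with Adrb1 at the upper end, while Adra2c had -0.03. Downstream of the receptors, the adenylyl cyclase Adcy5 had 26.7 in TAC and 29.8 in sham (-0.15), the phosphodiesterase Pde3a had 19.3 in TAC and 21.7 in sham (-0.16), and the receptor kinases Adrbk1 and Adrbk2 had -0.12 and -0.01. The kinase subunits Prkaca (-0.02), Prkacb (0.01) and Prkar2a (0.10), the arrestin Arrb2 (0.06) and the G protein subunit Gnai3 (0.08) lay closer to 0. Pde3a had a peak ratio of 0.26 and Adcy5 of 0.07, both opposite in sign to the average. The 5 calcium handling promoters lacking ANP32E, those of Atp2a2, Camk2b, Ppp3r1, Stim1 and Cacnb2, lay between -0.05 and 0.06.

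**Figure D4:**
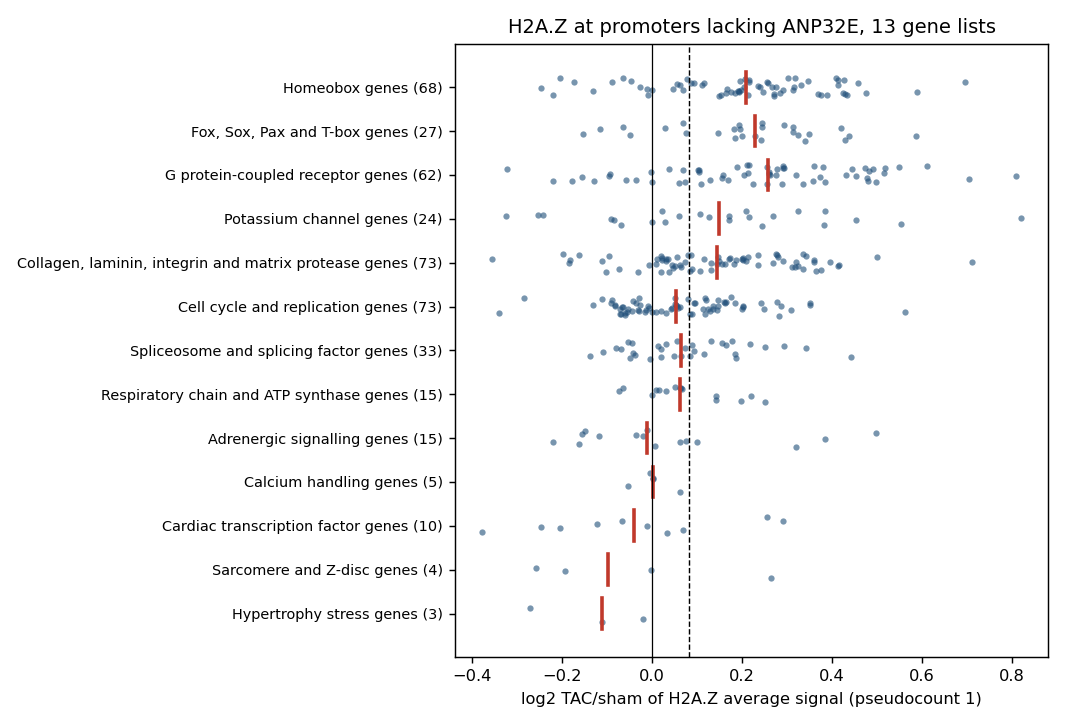
Log2 ratio of TAC over sham average H2A.Z signal (horizontal axis, 1 added to each value) at promoters lacking ANP32E, for 13 gene lists with the number of promoters in brackets. Each point is a promoter, the red bar is the median of the list, the dashed line is the 0.08 of all promoters lacking ANP32E and the solid line is 0; developmental factor and G protein-coupled receptor lists lie to the right and the cardiac lists around 0.

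The lowest ratios over all 4378 promoters were also at weak ones, and the genes of this paragraph were named after their values were seen. Helt, a helix-loop-helix factor of the brain, had the lowest value, with 13.1 in the TAC and 19.2 in the sham heart (-0.52). Popdc3, a cyclic AMP-binding protein of striated muscle, had 12.6 in TAC and 17.7 in sham (-0.46), and the amino acid transporter Slc38a4 had 10.9 in TAC and 15.5 in sham (-0.47). The desmosomal genes Dsp, at 14.8 in TAC and 18.5 in sham, and Dsc2, at 15.1 in TAC and 19.0 in sham, both had -0.31. None of these reached a 1.5-fold difference.

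Promoters lacking ANP32E were usually far from any region of that protein. The nearest ANP32E region was a median of 74972.5 bp away, 1791 promoters (40.9%) were more than 100000 bp from one, and 6 were within 1000 bp. For 807 genes (18.4%) the ANP32E table listed a region elsewhere at the same gene, which for 272 lay inside the gene. Those 807 had a median log2 ratio of 0.06, with median signals of 26.9 in TAC and 25.9 in sham hearts. The other 3571 had 0.09, with 25.6 in TAC and 24.1 in sham hearts. Atp2a2, the calcium pump of the sarcoplasmic reticulum, had 9 ANP32E regions listed, 7 of them in the gene, and Ssh2, a cofilin phosphatase, had 9 with 8 in the gene. At the border of the rule, the region of Eef1a2 lay 78 bp from an ANP32E region, that of Ski 318 bp and that of Tpst2 448 bp. Just beyond it, the regions of Ech1, Gpcpd1 and Slc25a4 overlapped one by 29, 120 and 125 bp. By length, Cd9 at 9989 bp and Jag2 at 9968 bp were just under the limit and Ppp2r1b at 10025 bp and Bmp6 at 10047 bp just over it. Gm10778 had the centre of its region farthest from the gene start, at -3638 bp.

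The regions also sat differently on their genes. The centre of the region lay a median of 121 bp inside the gene at promoters lacking ANP32E and 72 bp upstream (-72) at promoters with it. The centre was inside the gene at 2625 promoters lacking ANP32E and upstream at 1746, against 1312 inside and 1680 upstream with ANP32E. Genes whose promoter lacked ANP32E were longer, with a median of 30209 bp against 26902 bp, and 18.4% against 13.5% exceeded 100 kb. Of the 4341 genes matched to RefSeq, 4254 were protein-coding, beside 59 long noncoding RNA and 7 miRNA genes.

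The X chromosome had a higher share of promoters lacking ANP32E than the autosomes, and weaker H2A.Z signal at them. On X, 200 of 239 single-gene CpG-island promoters lacked ANP32E (83.7%, exact interval 78.4% to 88.1%), against 58.6% on autosomes, where the share went from 51.0% on chromosome 17 to 65.1% on chromosome 13. Signal at the X promoters lacking ANP32E was lower, with medians of 20.2 in TAC and 18.6 in sham hearts, against 26.2 in TAC and 24.8 in sham hearts on autosomes. At like signal the expected share for X was 79.3%, which the exact interval of X covers. In the weakest signal bin 92.7% of X and 91.9% of autosomal promoters lacked ANP32E. The median log2 ratio was 0.09 on X and 0.08 on autosomes. Of the 33 promoters at least 1.5-fold higher in TAC, 7 were on X, among them Dcaf12l1 and Usp51. They were 3.5% of the 200 X promoters lacking ANP32E, against 26 of 4178 (0.622%) on autosomes. The weakest signal bin held 27 of the 33. It also held 127 of the 200 X promoters lacking ANP32E, against 1230 of the 4178 on autosomes. Of those on X, Dcaf12l1, Zdhhc15, Ptchd1 and Lrch2 were called only in TAC. No like-signal figure was computed for this contrast.

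**Figure D5:**
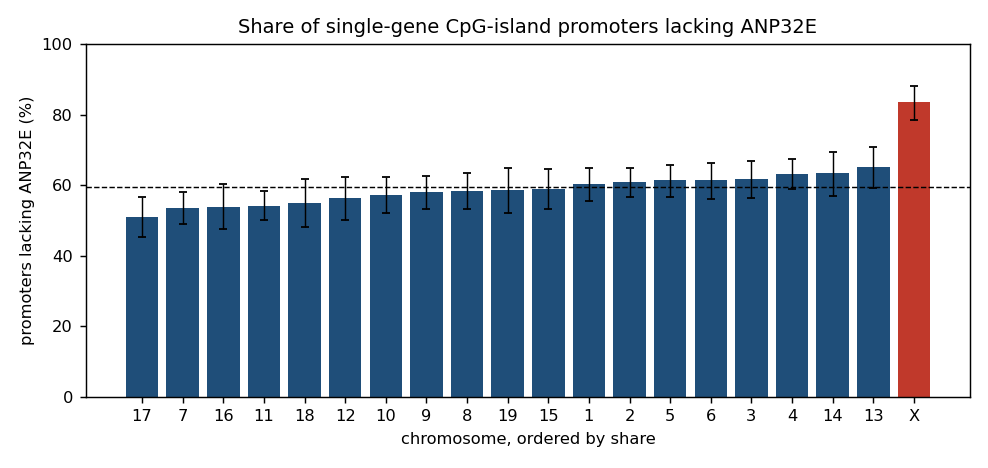
Share of single-gene CpG-island promoters lacking ANP32E by chromosome (vertical axis, %), in order of the share, with exact 95% binomial intervals. The dashed line is the 59.4% of all promoters; the autosomes lie between 51.0% and 65.1% and X, in red, at 83.7%.

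The tissue label could be checked only through the presence of H2A.Z at marker promoters, which is no measure of expression. An H2A.Z promoter region was listed for 2 of 10 cardiomyocyte markers, 3 of 8 fibroblast, 7 of 7 endothelial, 4 of 7 smooth muscle and pericyte and 1 of 7 leukocyte markers. Of these, the promoters lacking ANP32E held Myh11 and Kcnj8, both of smooth muscle and pericytes, and no marker of the other cell types. The part of the cell makeup of the TAC and sham hearts in the ratios was not tested.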

How the data were processed

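H2A.Z and ANP32E occupancy was measured in whole hearts by chromatin immunoprecipitation and sequencing, with 1 library per antibody and condition. The authors deposited 1 table per antibody with merged regions, and per the file headers each holds the average signal and the peak signal of every region in the TAC and sham libraries, marks for called intervals, CpG islands and nearby genes. BWA, SICER and mm10 are named per the submitters' processing notes, without versions. For scaling, use of the input and sequencing depth the sources used here give nothing, so no counting interval could be set on a signal. The ANP32E table lists called regions only.

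From these values log2((TAC + 1)/(sham + 1)) was computed, which understates the difference of weak regions, and 1.5-fold was the limit for higher or lower. No test was made. Overlap counted from 1 bp. Like-signal shares weight the 5 signal bins as the list does. Coordinates are as deposited, on mm10. RefSeq GRCm38.p6 supplied gene lengths, types and sequences.

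Named genes were the 10 highest and 10 lowest ratios in the stronger 50% without predicted loci, the 5 strongest, the extremes of lists with at least 5 promoters, all promoters of the cardiac lists and those at the limits of the rule; others were chosen after their values were seen. Some genes under this rule are not reported here. The promoters and the 37 lists were chosen with earlier results of these data known. Some names that do not belong to a family were removed from lists after values were seen, and others remain. The counting was tested on simulated data. Computation used pandas 2.3.3 and numpy 2.4.6 under Python 3.11.15, intervals came from scipy 1.17.1 and plots from matplotlib 3.10.9. Alternatives were peak signal, other pseudocounts, thresholds, length and distance limits, autosomes, regions called in both hearts and other definitions of ANP32E overlap.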

Additional observations from a re-analysis of the deposited data

How the results depend on the processing

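No paired analysis was possible because each condition had 1 library per antibody. The direction of the median log2 ratio, of the signal difference and of the ratio difference between promoters without and with ANP32E held under every alternative run for them, and of the values that answer a comparison 71 stayed alike and 15 moved. With peak signal the median ratio was 0.19, the counts of promoters past 1.5-fold were 227 higher and 7 lower in TAC, the median signals were 88.0 in TAC and 77.0 in sham hearts, and the signal difference was -24.5. The count of higher promoters was 4 with a pseudocount of 5, 1 in the stronger 50%, 11 among promoters called in both hearts and 0 at 2-fold. The share lacking ANP32E was 63.2% for lengths under 5000 bp and 81.4% when only ANP32E regions called in both hearts counted, where the share was also higher in all 37 lists. The signal difference was -11.7 in the shortest bin. The ratio difference was 0.18 in the weakest and 0.048 in the strongest signal bin; for it, peak signal, length bins, regions called in both hearts and the definitions of ANP32E overlap were added after seeing the data. Peak signal turned the sign at Kctd8 (0.026), Kremen1 (0.24), Bcl10 (0.20) and Lmnb1 (0.17); the cause was not tested. The planned comparison of promoter sequences is not reported, since too few RefSeq windows matched. Unknown depth and scaling limit every value.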
